A study of Mus musculus with 4 samples.

Results

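Smooth muscle cells of the oviduct of newborn mice are described here, 2111 cells from 2 single-cell RNA libraries. A cell was counted as smooth muscle when it held at least 500 detected genes and at most 15% of UMIs (unique molecular identifiers, 1 per captured RNA molecule) from mitochondrial genes. At least 3 of the 6 markers Myh11, Cnn1, Lmod1, Actg2, Des and Fbxl22 had to be detected, and together they had to make up at least 0.03% of the UMIs of the cell. Cells with 2 or more of the pericyte genes Rgs5, Ndufa4l2 and Cox4i2, or with any UMI of Epcam (epithelium), Pecam1 (endothelium) or Upk3b (mesothelium), were left out. The 2111 cells are 1117 of the 6920 kept barcodes of oviduct replicate 1 and 994 of the 5840 of replicate 2, so 2111 of 12760 kept oviduct barcodes. All 4 libraries together held 26619 called barcodes, of which 21326 were kept. The same rule found 710 and 766 cells in the uterine libraries.

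Smooth muscle surrounds the mucosa of the oviduct, and its contractions move oocytes and embryos along the tube. Contraction is driven by myosin pulling on actin filaments, and it is switched on when calcium activates myosin light chain kinase. The genes of this machinery are switched on during differentiation by serum response factor and its coactivator myocardin. In the embryo, oviduct and uterus form from the upper parts of the same Müllerian duct, and Hox genes mark position along it.

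The study compared the oviduct and the uterus of wild type, untreated CD1 mice on postnatal day 3. Each organ gave 2 libraries of the 10x Genomics 3' type, made from pools of 3 and 4 neonates, and both organs came from the same neonates. The samples were labelled as mesenchymal and epithelial cells, so muscle was not selected. A p-value below measures only the spread between 2 pooled libraries per organ, which may be technical. Both organs were dissociated with enzymes into single cells.

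Oviduct smooth muscle held 17972229 and 14915576 UMIs in the libraries, with a median of 14371 and 13853 UMIs per cell, and uterine smooth muscle held 11267512 and 13256899 UMIs with medians of 15072 and 16576.5. Pairs of libraries shared 6 to 10 barcode sequences among kept barcodes, and 0 or 1 among smooth muscle cells. Levels are UMIs on the counts-per-million scale of the cell class in a library, written CPM, and were not corrected for RNA of other cells. In the oviduct libraries such free RNA could make up at most 1.15% and 2.03% of the smooth muscle UMIs, the largest share that the levels of abundant genes of empty droplets allow. Among the markers of other cells, all 6 stromal genes were detected, with summed levels of 4652 and 4419 CPM against 7412 and 7628 CPM in oviduct stroma. Stroma means cells with at least 2 of Pdgfra, Dcn, Col1a1 and Lum and fewer than 2 of the muscle markers, and pericytes are cells with 2 or more of the pericyte genes. Of the muscle cells, 1110 of 1117 and 981 of 994 also held at least 2 of those 4 stromal genes. The 4 myeloid genes summed to 2.17 and 1.81 CPM, the 4 genes of glia and neurons to 5.51 and 6.17 CPM and the 3 skeletal muscle genes to 0.501 and 1.07 CPM. A list of 7 pericyte markers, with those of the rule, summed to 84.2 and 91.2 CPM, against 61.9 and 69.5 CPM in stroma. The 3 genes of interstitial cells of Cajal type summed to 95.7 and 102.6 CPM, against 84.5 and 87.7 CPM in stroma. Endothelial genes summed to 22.1 and 21.7 CPM, against 29.6 and 38.0 CPM in stroma. The 4 haemoglobin genes summed to 85.2 CPM in oviduct replicate 1, 1053 CPM in replicate 2, and 115 and 187 CPM in the uterine libraries. Cells with over 1% haemoglobin UMIs numbered 4 and 3 in oviduct against 7 and 0 in uterus.

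The 6 markers that chose the cells were high because the rule asked for them, and their values are a description. Myh11, the smooth muscle myosin heavy chain, stood at 390 and 532 CPM in oviduct smooth muscle, 3.09 and 3.83 CPM in oviduct stroma and 155 and 181 CPM in oviduct pericytes, the contractile cells on small vessels. Cnn1, the actin-binding calponin, stood at 268 and 285 CPM and Fbxl22, an F-box protein, at 280 and 292 CPM. Lmod1, which nucleates actin filaments, stood at 93.0 and 90.9 CPM and Actg2, the enteric smooth muscle actin, at 74.9 and 54.0 CPM. Des, the muscle intermediate filament desmin, stood at 225 and 201 CPM, but at 123 and 112 CPM in stroma and 360 and 371 CPM in pericytes, so it was high in other cells too. All 6 markers were present in 141 and 115 cells, and exactly 3 in 330 and 274.

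The label was checked on 8 smooth muscle genes outside the rule, all of them detected. Their summed level was 11056 and 11049 CPM in oviduct smooth muscle against 1630 and 1729 CPM in oviduct stroma. Acta2, the vascular and visceral smooth muscle actin, stood at 5248 and 5374 CPM in muscle, 514 and 558 CPM in stroma and 2042 and 1858 CPM in pericytes. Tagln, the actin-binding transgelin, stood at 2471 and 2184 CPM, 254 and 274 CPM, and 1171 and 932 CPM. All 8 were higher in muscle than in pericytes in both libraries, but some only by a little. Myl9 stood at 1083.3 and 1068.5 CPM in muscle against 926 and 923 CPM in pericytes, and Tpm2 at 1119.2 and 1131.5 CPM against 814 and 769 CPM. Cells near the limits of the rule carried less of these genes. In cells with a marker share of 0.03 to 0.04%, just inside, Acta2 was at 2488 and 2548 CPM, and in those at 0.02 to 0.03%, just outside, at 1690 and 1750 CPM. At the limit on the number of markers, Acta2 was at 2955 and 3584 CPM in cells with exactly 3 markers and at 1645 and 1736 CPM in those with exactly 2. Acta2 was thus lower just outside both limits, but still above its level in stroma. Myocd gave no such clear step at the limit on the share. It was at 55.7 CPM just inside and 61.6 CPM just outside in replicate 1, and at 93.5 and 55.7 CPM in replicate 2.

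**Figure D1:**
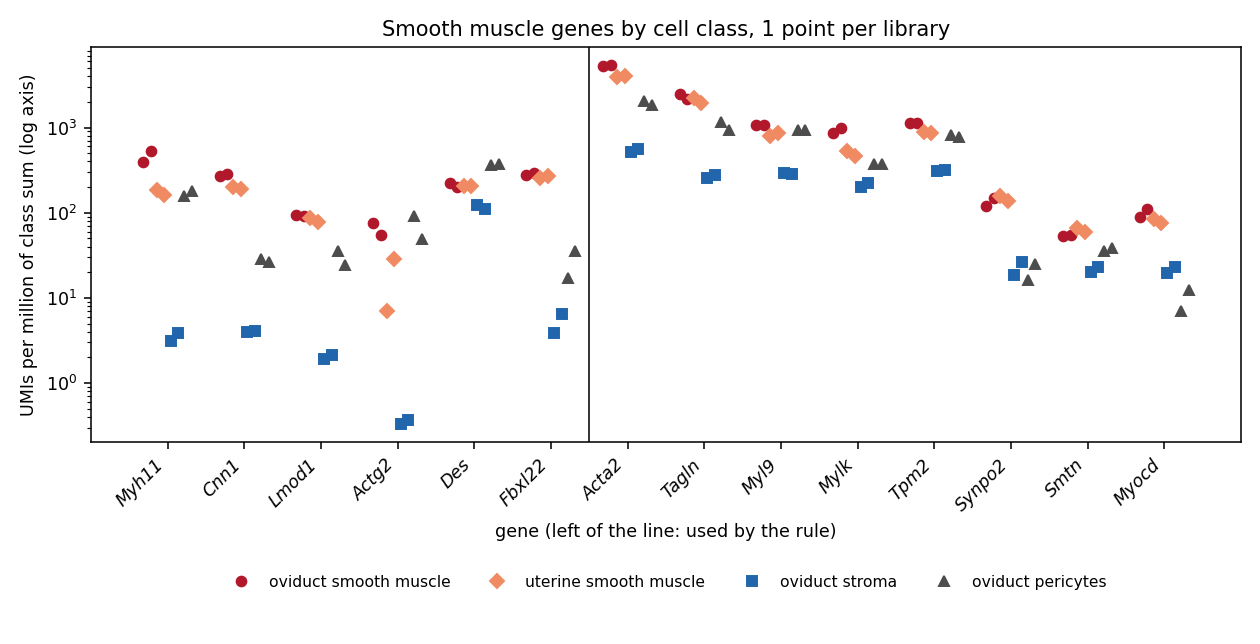
Levels of the 6 markers of the rule (left of the line) and of 8 smooth muscle genes outside it, in CPM of the class sum on a log axis, with 1 point per library for oviduct and uterine smooth muscle, oviduct stroma and oviduct pericytes. Acta2 stood at 5248 and 5374 CPM in oviduct muscle and at 514 and 558 CPM in oviduct stroma, while Des was higher in pericytes than in muscle.

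Next to oviduct stroma, the genes that stood highest in oviduct smooth muscle included Tnnt2, Acta2, Itga1 and Tagln. No test is given, since the rule chose the cells. Of 2739 genes outside the rule at 50 CPM or more in both oviduct libraries, 15 stood at least 4 times above stroma in both. Tnnt2, the troponin T best known from heart muscle, stood at 71.8 and 84.5 CPM against 0.659 and 1.19 CPM in stroma, 109 and 71.2 times as high. Tnnt2 was detected in 17.6% and 20.5% of muscle cells thinned to 5000 UMIs, against 0.277% and 0.719% of stromal cells, and in 28.9% and 31.4% of muscle cells before thinning. At 5000 UMIs a gene of this level averages under 1 UMI per cell, so the share of cells that express it cannot be read from these values. Its level was uneven among the muscle cells, as the marker bins below show. The others, in falling order, were Acta2, Itga1, Tagln, Fhl1, Mfap5, Ppp1r12b, Synpo2, Frem2, Npnt, Dmd, Myocd, Nexn, Mylk and Map1b. Mylk, myosin light chain kinase, stood at 870 and 976 CPM against 202 and 221 CPM in stroma. Myocd, the myocardin gene, stood at 90.1 and 111 CPM against 19.4 and 22.8 CPM. Dmd, dystrophin, which ties actin to the matrix, stood at 59.8 and 68.5 CPM against 11.6 and 14.2 CPM. Mfap5, a microfibril protein, and Npnt, an integrin ligand of the basement membrane, stood at 306 and 328 CPM and at 284 and 323 CPM, against 45.6 and 55.2 CPM and 55.2 and 60.0 CPM in stroma.

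Pericytes shared part of this set. Of the 15 genes, 12 stood at least 2 times above oviduct pericytes in both libraries. Itga1, the alpha 1 integrin chain, went the other way, with 65.2 and 71.1 CPM in muscle and 369 and 470 CPM in pericytes. The Wnt ligand gene Wnt16 was lower in muscle than in stroma, at 95.9 and 95.8 CPM in muscle and 313 and 292 CPM in stroma. The stromal receptor gene Pdgfra stood at 163 and 167 CPM in muscle and 337 and 334 CPM in stroma. Both genes were thus present in the muscle cells at lower levels.

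The CArG box, the element bound by serum response factor, was searched in promoter sequences of RefSeq (build GRCm38.p6, 250 bases before to 50 after each start) to show what DNA stands in front of these genes. It is named here without its letters, and it is a palindrome so that 1 search covers both strands. No other motif was searched, so overlap with other motifs was not examined. It was found for 1.81% of the 27025 genes with a promoter in the table and for 1.65% of the 10317 matched genes tested here. Of the contractile genes outside the rule, 45 of 57 matched and 9 held it (20%). Of the 6 markers, 4 matched and 1 held it, Fbxl22, while Cnn1, Des and Lmod1 had no match in this window. Of the 15 genes above stroma, 11 matched and 2 held it, Dmd and Fhl1. A match is a description of letters and not of binding. Shown are the 250 bases before the start of the marker, of these 2 genes and of Myl9, the regulatory light chain of smooth muscle myosin, with the CArG box in capitals.
Fbxl22 (chr9:66514594-66514843, minus strand): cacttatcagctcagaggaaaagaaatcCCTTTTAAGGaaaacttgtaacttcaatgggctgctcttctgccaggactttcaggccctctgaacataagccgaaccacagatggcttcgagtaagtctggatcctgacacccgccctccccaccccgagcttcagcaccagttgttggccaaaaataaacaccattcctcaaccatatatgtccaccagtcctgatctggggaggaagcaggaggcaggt
Myl9 (chr2:156775214-156775463, plus strand): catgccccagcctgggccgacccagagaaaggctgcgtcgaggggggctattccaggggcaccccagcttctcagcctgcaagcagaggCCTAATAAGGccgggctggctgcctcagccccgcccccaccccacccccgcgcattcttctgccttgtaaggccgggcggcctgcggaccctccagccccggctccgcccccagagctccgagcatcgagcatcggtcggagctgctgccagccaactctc
Dmd (chrX:82948620-82948869, plus strand): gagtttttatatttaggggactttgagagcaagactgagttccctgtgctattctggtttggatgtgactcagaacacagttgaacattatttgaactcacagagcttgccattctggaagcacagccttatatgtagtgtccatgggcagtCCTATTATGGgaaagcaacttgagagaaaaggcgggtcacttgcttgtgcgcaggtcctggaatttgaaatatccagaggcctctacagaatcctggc
Fhl1 (chrX:56779433-56779682, plus strand): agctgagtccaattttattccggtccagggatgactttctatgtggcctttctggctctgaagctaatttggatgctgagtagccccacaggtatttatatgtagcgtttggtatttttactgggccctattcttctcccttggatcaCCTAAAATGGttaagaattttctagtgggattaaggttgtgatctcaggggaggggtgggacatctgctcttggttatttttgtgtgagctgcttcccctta
The box began 222 bases before the start in Fbxl22, 161 in Myl9, 98 in Dmd and 102 in Fhl1. Fbxl22 is a marker of the rule, and Dmd and Fhl1 were chosen for their level over stroma, so their height there is no result of the search. In oviduct muscle against oviduct stroma, Myl9 stood at 1083 and 1069 CPM against 291 and 285 CPM, and Fhl1, which encodes a LIM domain protein of muscle, at 104 and 110 CPM against 12.01 and 15.4 CPM.

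The muscle cells ranged from weak to strong in the markers, and other genes followed this range. Cells of each oviduct library were ordered by their share of marker UMIs and split into 4 bins of 279 or 280 and 248 or 249 cells, with no test since the markers set the order. Of 2668 genes at 50 CPM or more outside the rule, 42 were at least doubled from the lowest to the highest bin in both libraries. Tnnt2 went from 7.73 to 200.3 CPM in replicate 1 and from 13.2 to 250.3 CPM in replicate 2. Acta2 went from 2720 to 8576 CPM and from 3126 to 8435 CPM, so that even the lowest bin stood above stroma. Mylk went from 440 to 1547 CPM and from 490 to 1716 CPM. Ramp1, the partner of the calcitonin gene-related peptide receptor, went from 29.3 to 139.8 CPM and from 37.1 to 128 CPM.

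In the opposite direction, 26 genes stood at 0.5 times or less in both libraries. Pdgfra went from 239 to 82.6 CPM and from 231 to 86.7 CPM. Wnt16 went from 129 to 52.7 CPM and from 137 to 62.9 CPM, and the growth inhibitor Cdkn1c from 625 to 271 CPM and from 511 to 183 CPM. Birc5 and Nusap1, which act in mitosis, were also among the 26. Other genes were nearly level. Hoxc8 ran from 239.9 to 214.5 CPM and from 214.5 to 226 CPM, and the estrogen receptor gene Esr1 from 296 to 251 CPM and from 318 to 320.1 CPM. The bins had similar depth, with medians of 13786 to 15193 UMIs in replicate 1 and 13440 to 14581 UMIs in replicate 2.

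**Figure D2:**
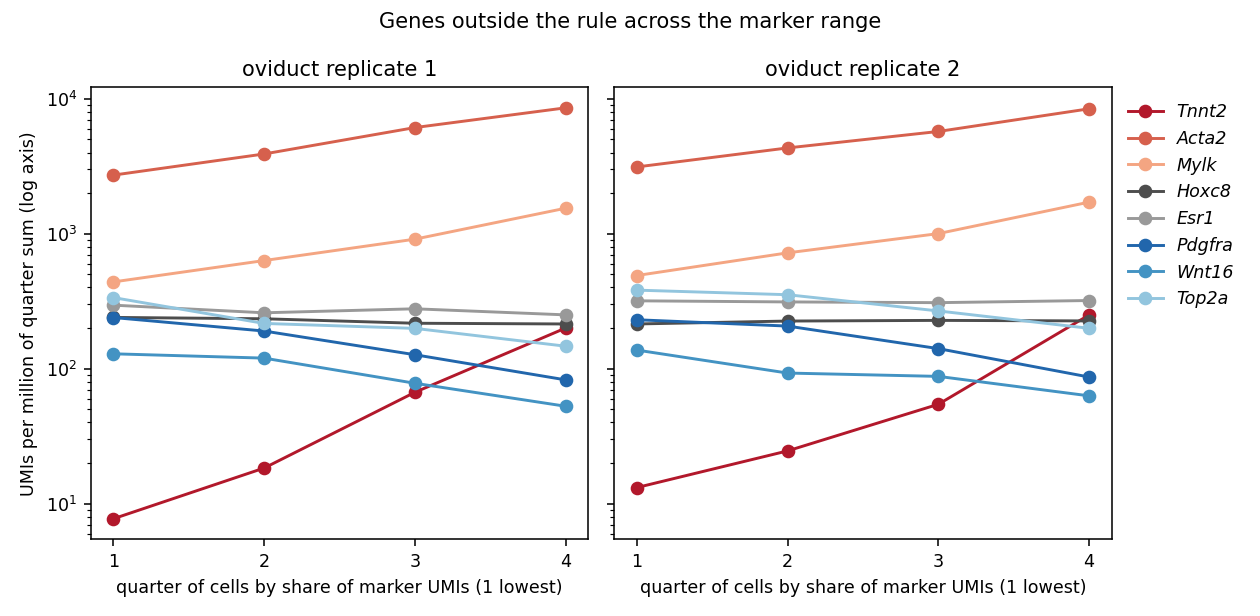
Levels of 8 genes outside the rule in the 4 bins of oviduct smooth muscle cells ordered by their share of marker UMIs, in CPM of the bin sum on a log axis, with a panel per library and a line per gene. Tnnt2 climbed from 7.73 to 200.3 CPM and from 13.2 to 250.3 CPM, Pdgfra went down, and Hoxc8 and Esr1 stayed nearly level.

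Clustering of the 2111 cells, without the markers and listed cell cycle genes among its variable genes, gave 8 clusters at resolution 0.6, each with cells of both libraries. They are described by number and leading genes, with no test. Clusters 1 to 8 held 22, 19, 3, 22, 13, 13, 14 and 1 cells with a high doublet score, which marks barcodes that may hold more than 1 cell. Cluster 1 (518 cells) was led by early response genes such as Nr4a3, Plk2 and Nr4a2, and also held Pthlh, parathyroid hormone-related protein, at 121 and 89.7 CPM against 30.8 and 34.5 CPM in the other cells. Its Pdgfra was 294 and 273 CPM, the highest of the 8. Cluster 2 (422 cells) was led by Tnnt2, at 153 and 179 CPM against 51.8 and 65.6 CPM, with Hoxc10 and the Notch target Hes1. Cluster 3 (340 cells) was led by Hoxa9, with Txnip and the marker Fbxl22, and had little of the early response gene Fos, at 449 and 578 CPM. Clusters 2 and 3 had the highest median marker shares, 0.146% and 0.147%, against 0.0771% to 0.109% in the other clusters.

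Clusters 4 and 5 were dividing cells by their leading genes. Cluster 4 (251 cells) was led by the mitotic genes Cenpf and Ube2c, with Cenpf at 767 and 750.1 CPM against 15.7 and 15.9 CPM elsewhere. Cluster 5 (192 cells) was led by Slfn9 and genes of DNA replication such as Uhrf1 and Mcm3, with Mcm3 at 168 and 182 CPM against 33.9 and 37.9 CPM. Cluster 7 (157 cells) was led by Angptl7, Cxcl14 and Fmo2. The chemokine Cxcl14 stood there at 488 and 615 CPM against 91.9 and 105 CPM, and Hsd11b2, which inactivates glucocorticoids, at 62.2 and 42.1 CPM against 9.40 and 7.29 CPM. Cluster 8 (40 cells) had a median of 4301.5 UMIs, against 10591 to 20514 in the other clusters, and was led by Crip1, Krt19 and Ccl2, with the epithelial genes Wfdc2 and Krt8 among the leaders. It is left unnamed, and its Acta2 of 2004 and 1268 CPM was the lowest of the 8.

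Cluster 6 held most of the Hoxa11, Hoxd10 and Hoxd11 UMIs of the oviduct muscle, but not of Hoxa10. Its 191 cells were 9.13% and 8.95% of the muscle cells of the libraries and were led by Hoxd11 at 83.6 and 95.7 CPM, against 2.29 and 2.42 CPM in the other muscle cells. Hoxa11 stood there at 26.8 and 34.2 CPM against 0.680 and 0.660 CPM, and the transcription factor gene Tcf21 at 236 and 237 CPM against 18.3 and 16.3 CPM. Of all Hoxa11 UMIs of the oviduct muscle, 48 of 59 and 44 of 53 lay in this cluster (81.4% and 83.0%), as did 80.2% and 78.8% of those of Hoxd11 and 71.2% and 72.1% of those of Hoxd10. Of the Hoxa10 UMIs, 35.5% and 36.0% lay there, but its level of 135.5 and 111 CPM in cluster 6 was still the highest of all clusters. Hoxc10 was about as high in cluster 2, at 47.5 and 46.0 CPM, as in cluster 6, at 43.5 and 57.6 CPM, and Hoxa9 was highest in clusters 2 and 3. The genes Nefm and Lum were also leaders, at 122 and 176 CPM and at 252 and 328 CPM. In the other muscle cells they stood at 9.09 and 7.70 CPM and at 26.9 and 16.1 CPM. Leaders were ranked against other muscle cells only, so a lead does not show that a gene is particular to muscle. Oviduct stroma carried Lum too, at 111.1 and 101.2 CPM. The oviduct genes Nr2f1 (21.2 and 8.56 CPM), Fst (5.58 and 4.67 CPM) and Wnt16 (17.3 and 11.7 CPM) were lower there than in clusters 1 to 5 in both libraries. Hoxc8, at 89.8 and 65.3 CPM, was still present. The labels do not say where along the tube the cells came from.

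**Figure D3:**
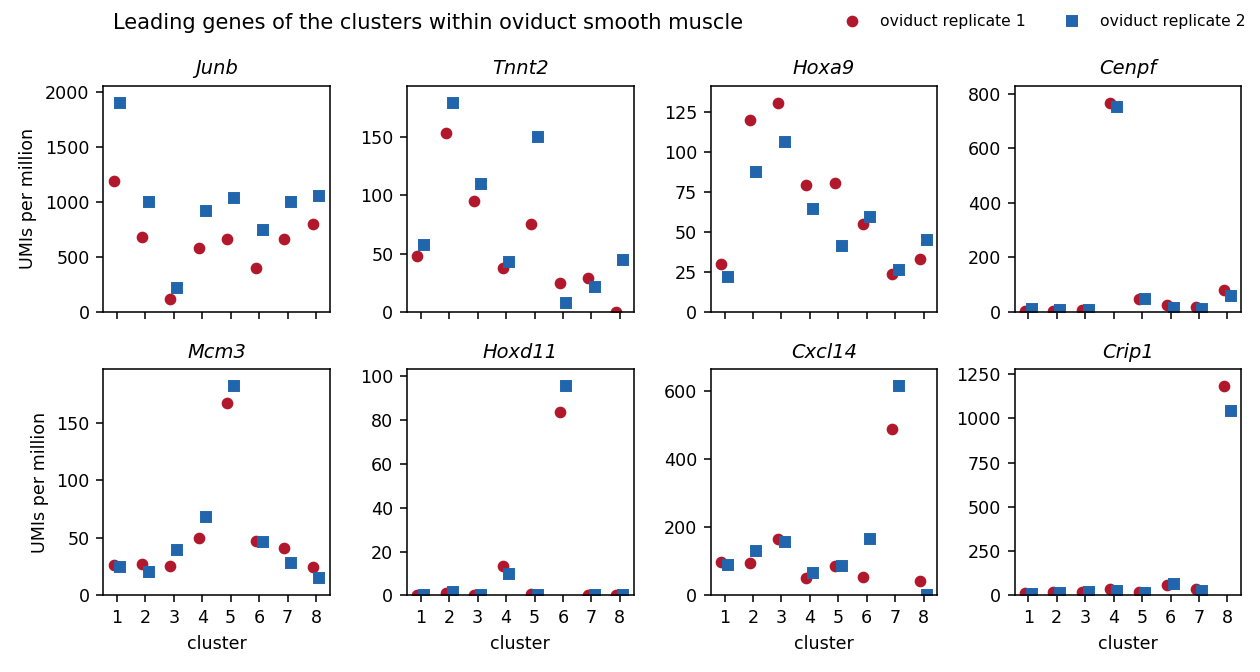
Levels of 8 genes in the 8 clusters within oviduct smooth muscle, in CPM of the cluster sum on linear axes from 0, with 1 point per library. Hoxd11 was nearly confined to cluster 6 (83.6 and 95.7 CPM) with a little in cluster 4, Cenpf to cluster 4 and Cxcl14 was highest in cluster 7.

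Oviduct and uterine smooth muscle, picked by the same rule, were compared with edgeR's quasi-likelihood test on library sums, and a gene was called where its p, adjusted by the Benjamini-Hochberg method, was under 0.05. Log2 fold changes are oviduct minus uterus with their standard error. Of 13688 genes tested, 4580 were called (33.5%), 2435 with the higher level in the oviduct (17.8%) and 2145 in the uterus (15.7%). These shares are the background against which each gene group is to be read, but they were not matched for level. The median oviduct level was 15.2 CPM over all genes outside the rule. It was 126 CPM for the contractile list, 63.7 CPM for matrix genes, 8.49 CPM for Hox genes and 1.91 CPM for Notch genes. With DESeq2, 2690 genes were called, with cells thinned to 5000 UMIs 2621, and with at least 5 of the 6 markers required 2418.

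The contractile apparatus leaned to the oviduct. Of 57 listed genes outside the rule, 53 passed the filter on low counts, of which 30 were called toward the oviduct and 7 toward the uterus. The median log2 fold change of the 53 was 0.33, against -0.0023 over all genes outside the rule. Most steps were small. Acta2 stood at 5248 and 5374 CPM in oviduct against 3881 and 4068 CPM in uterus, a log2 fold change of 0.38 ± 0.08 (edgeR, adjusted p = 0.002), and without uterus replicate 1 its call was lost. Tagln, at 2471 and 2184 CPM against 2212 and 1951 CPM, overlapped between the organs (0.13 ± 0.09, adjusted p = 0.31). Mylk stood at 870 and 976 CPM against 523 and 469 CPM, higher in both oviduct libraries than in either uterine one (0.86 ± 0.09, adjusted p = 4.3e-06). Dmd had the largest difference of the list, with 59.8 and 68.5 CPM against 7.99 and 9.20 CPM (2.85 ± 0.12, adjusted p = 8.2e-10). Next came Mustn1, a small muscle nuclear protein, at 10.3 and 11.5 CPM against 1.60 and 2.11 CPM, and Hspb7, a small heat shock protein of muscle, at 22.5 and 23.3 CPM against 4.88 and 6.71 CPM. The largest in the uterine direction was Palld, the actin scaffold palladin, at 129 and 124 CPM against 303 and 275 CPM (-1.23 ± 0.09, adjusted p = 1.2e-07). The small heat shock gene Hspb1 and the LIM domain gene Fhl2 were also called higher in the uterus (-0.97 ± 0.10 and -0.64 ± 0.12).

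The cells differed in marker share as well. The median share of marker UMIs per cell was 0.0992% and 0.112% in oviduct against 0.0749% and 0.0720% in uterus, and its part in these differences was not tested. Of the markers themselves, described without a test, Myh11 stood at 390 and 532 CPM in oviduct against 187 and 160 CPM in uterus. Actg2 stood at 74.9 and 54.0 CPM against 7.01 and 28.7 CPM, while Des overlapped, at 225 and 201 CPM against 208 and 206 CPM.

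Of 42 listed transcription factors of smooth muscle, 29 were tested, and 14 were called toward the oviduct and 3 toward the uterus. Mkl1, Mkl2, Tead1 and Tead3 were not called. Myocd stood at 90.1 and 111 CPM in oviduct against 85.2 and 75.0 CPM in uterus (0.29 ± 0.10, edgeR adjusted p = 0.045), a call that 6 of the 12 alternatives lost. Srf, serum response factor, overlapped, at 38.8 and 48.1 CPM against 36.6 and 41.3 CPM (0.12 ± 0.11, adjusted p = 0.47). Twist2, at 57.2 and 52.9 CPM against 15.8 and 15.2 CPM, and Gata6, at 72.7 and 53.0 CPM against 23.3 and 20.3 CPM, were the largest in the oviduct direction above 5 CPM (1.79 ± 0.10 for Twist2). Klf2 followed with 118 and 175 CPM against 42.3 and 69.2 CPM. Tcf21 was the largest in the uterine direction, at 40.1 and 35.3 CPM against 282 and 265 CPM (-2.89 ± 0.10, adjusted p = 1.3e-10). It is also among the 6 stromal markers, and stood in stroma at 64.7 and 64.0 CPM in oviduct against 181 and 198 CPM in uterus. Hand2, at 93.4 and 83.7 CPM against 162 and 170 CPM, was also called higher in the uterus.

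Apart from Hox genes, the largest called differences toward the oviduct among genes whose CPM, averaged across both organs, was 20 or more were those of Aldh1a1, Fst, Pthlh, Hpgd, Nr2f1, Enpp2, Calcrl and Wnt16. Aldh1a1, which makes retinoic acid, stood at 42.1 and 43.3 CPM in oviduct against 0.266 and 0.377 CPM in uterus, a log2 fold change of 6.96 ± 0.20 (edgeR, adjusted p = 2.78e-11). Fst, follistatin, which binds activins, stood at 63.6 and 70.5 CPM against 0.621 and 0.453 CPM (6.92 ± 0.18, adjusted p = 1.09e-11). Pthlh stood at 51.9 and 48.6 CPM against 0.444 and 0.453 CPM (6.75 ± 0.19, adjusted p = 2.3e-11). In each of these 3 genes the uterine muscle held 13 UMIs or fewer in all. Hpgd, which breaks down prostaglandins, stood at 65.7 and 55.7 CPM against 1.51 and 1.13 CPM (5.50 ± 0.17). Nr2f1, a nuclear receptor of the COUP-TF family, stood at 116 and 127 CPM against 3.73 and 3.24 CPM (5.09 ± 0.12). Enpp2, the enzyme autotaxin that makes lysophosphatidic acid, stood at 182 and 158 CPM against 4.97 and 9.13 CPM (4.53 ± 0.19). Calcrl, the calcitonin receptor-like receptor, and Wnt16 followed at 4.48 ± 0.15 and 4.44 ± 0.12. Oviduct stroma carried these genes too, with Fst at 89.7 and 98.1 CPM, Aldh1a1 at 76.6 and 84.0 CPM and Wnt16 at 313 and 292 CPM, so these genes were not limited to muscle.

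In the uterine direction, with the same limit of 20 CPM and apart from Hox genes, Pkib, an inhibitor of protein kinase A, stood at 0.779 and 1.68 CPM in oviduct against 41.6 and 49.9 CPM in uterus (-5.29 ± 0.21, edgeR adjusted p = 5.6e-10). Pcp4l1 stood at 2.56 and 1.88 CPM against 41.1 and 42.8 CPM (-4.25 ± 0.15). S1pr3, a sphingosine 1-phosphate receptor, stood at 3.23 and 4.22 CPM against 43.6 and 43.0 CPM (-3.58 ± 0.13). The libraries of the organs were far apart in each. Gria1, a glutamate receptor subunit, Plac8 and Prlr, the prolactin receptor, completed the 10 largest above that limit with log2 fold changes of -3.40 ± 0.14, -3.39 ± 0.18 and -3.33 ± 0.11.

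**Figure D4:**
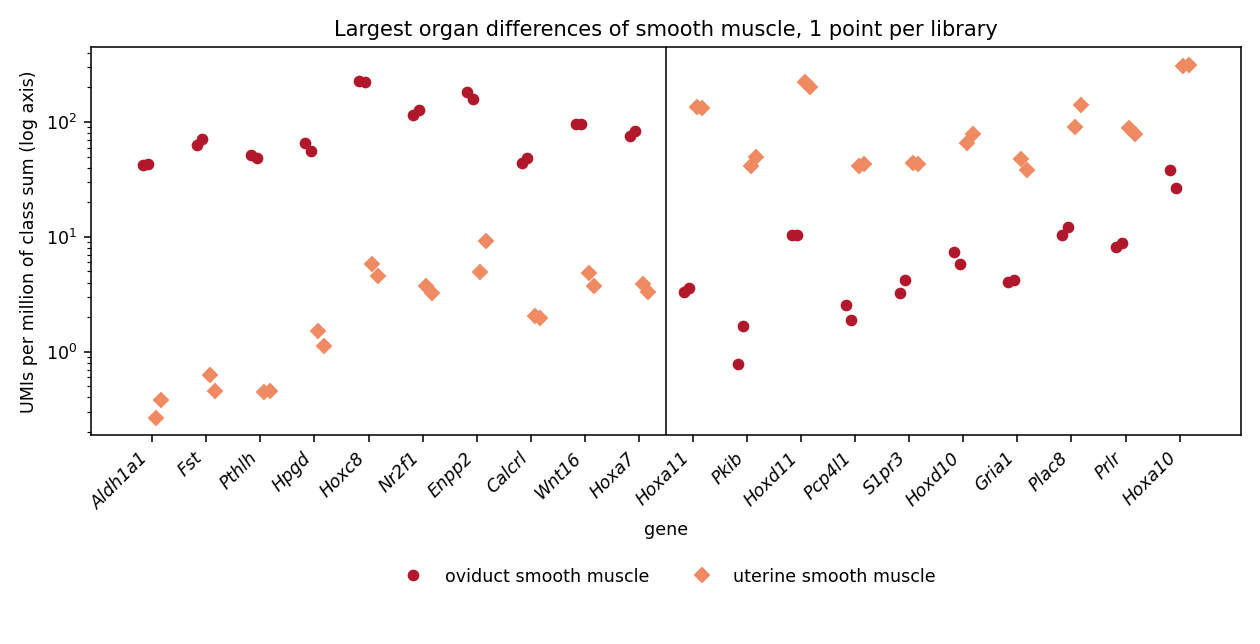
Levels of the 10 genes with the largest called difference in each direction between oviduct and uterine smooth muscle among genes averaging 20 CPM or more across both organs, in CPM of the class sum on a log axis, with 1 point per library and the oviduct-high genes left of the line. Genes were taken only where the libraries of the organs do not overlap, and Aldh1a1 stood at 42.1 and 43.3 CPM against 0.266 and 0.377 CPM.

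Hox genes split by cluster and by paralogue number. Of 39 listed genes, 30 identifiers were tested, 2 of them for Hoxd4, of which 13 were called toward the oviduct and 11 toward the uterus. All 6 tested genes of the Hoxc cluster from Hoxc4 to Hoxc10 were called higher in the oviduct, while the rare Hoxc11 was called higher in the uterus (-5.26 ± 0.38). Hoxc8 stood at 227 and 223 CPM against 5.86 and 4.53 CPM (5.41 ± 0.12, edgeR adjusted p = 5.4e-12), and Hoxc6 at 106 and 104 CPM against 7.63 and 5.81 CPM (3.94 ± 0.12). Hoxc4 and Hoxc5 were higher by 4.00 ± 0.16 and 4.04 ± 0.26. In the Hoxa cluster the sign turned at Hoxa9. Hoxa7 stood at 75.5 and 83.5 CPM against 3.90 and 3.32 CPM (4.43 ± 0.13). Hoxa9 overlapped between the organs, at 73.9 and 56.1 CPM against 68.4 and 52.3 CPM (0.08, adjusted p = 0.69). Hoxa10 stood at 38.1 and 26.6 CPM against 310.4 and 314 CPM (-3.30 ± 0.14), and Hoxa11 at 3.28 and 3.55 CPM against 135 and 132 CPM (-5.32 ± 0.12, adjusted p = 5.4e-12). All tested Hoxd genes were called higher in the uterus, with Hoxd11 at 10.4 and 10.5 CPM against 221 and 203 CPM (-4.38 ± 0.10), Hoxd10 at 7.34 and 5.77 CPM against 65.9 and 78.8 CPM (-3.49 ± 0.14) and Hoxd9 at 13.2 and 12.1 CPM against 72.5 and 74.5 CPM (-2.57 ± 0.10). Hox genes overlap one another in the genome, so reads of neighbours may be shared. In the test against stroma described below, 5 of the 30 were called, among them Hoxd11 and Hoxd10, where 12.2% of all genes were.

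**Figure D5:**
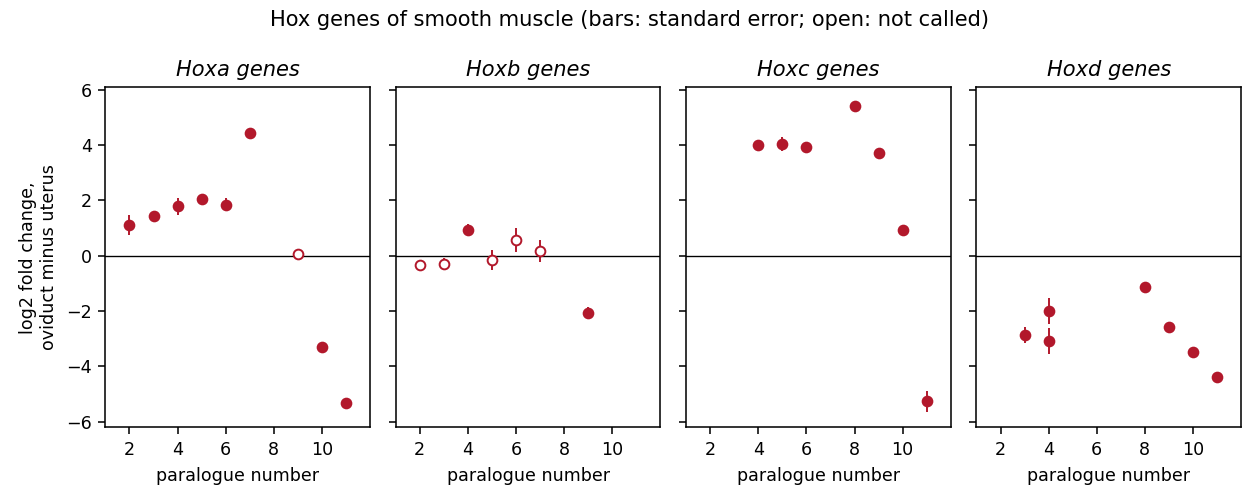
Log2 fold change, oviduct minus uterus, of the tested Hox genes of smooth muscle against their paralogue number, with a panel per cluster, bars for the standard error and open points for genes not called. Hoxa7 stood at 4.43 and Hoxa11 at -5.32, and Hoxd4 has 2 points because the files list it under 2 identifiers.

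Receptors for signals that make smooth muscle contract or relax differed in both directions. Of 55 listed, 41 were tested, 14 were called toward the oviduct and 16 toward the uterus. The prostaglandin receptor genes Ptger2 and Ptgfr stood at 12.3 and 12.2 CPM and at 20.5 and 21.7 CPM in the oviduct, against 1.69 and 1.81 CPM and 3.55 and 3.39 CPM in the uterus (2.76 ± 0.20 and 2.56 ± 0.15). Ptger3, at 9.68 and 8.92 CPM against 20.6 and 20.4 CPM (-1.17 ± 0.13), and Ptger4 (-0.90 ± 0.19) were called higher in the uterus. Rxfp1, the relaxin receptor, stood at 0.389 and 1.41 CPM against 18.1 and 15.6 CPM (-4.32 ± 0.29, edgeR adjusted p = 8.2e-08). Chrm3, a muscarinic receptor of visceral smooth muscle, stood at 2.56 and 3.35 CPM against 24.3 and 20.2 CPM (-2.95 ± 0.17, adjusted p = 1.6e-08). Another muscarinic receptor gene, Chrm2, was called higher in the oviduct, at 20.5 and 23.1 CPM against 16.6 and 12.5 CPM (0.55 ± 0.14). Stroma differed between the organs in the same direction in each of the receptor genes named so far, so these differences were not limited to muscle. Rxfp1 stood in stroma at 0.929 and 1.23 CPM in oviduct against 43.75 and 40.3 CPM in uterus, above its level in uterine muscle. Oxtr, the oxytocin receptor, was too rare to test, with 3 and 3 UMIs in oviduct against 0 and 6 in uterus.

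Ion channels and calcium genes numbered 19 called toward the oviduct and 10 toward the uterus of 47 tested. Ryr2, a calcium release channel, stood at 8.01 and 9.99 CPM against 2.48 and 1.73 CPM (2.06 ± 0.23) and Cacna2d1, a calcium channel subunit, at 55.7 and 60.0 CPM against 19.1 and 16.9 CPM (1.65 ± 0.10). Stroma carried both, with Ryr2 at 17.4 and 18.8 CPM in oviduct against 2.18 and 1.24 CPM in uterus. Cacna2d1 stood there at 44.2 and 46.9 CPM against 13.9 and 12.3 CPM. Gja1, the gap junction protein connexin 43, stood at 24.9 and 27.8 CPM against 112 and 111 CPM (-2.12 ± 0.09, edgeR adjusted p = 1.4e-09). Atp2a3, a calcium pump, and Cacna1d, a calcium channel, were also called higher in the uterus (-3.61 ± 0.17 and -1.79 ± 0.12).

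Of 9 steroid receptor genes tested, 4 were called toward the oviduct and 1 toward the uterus. Esr1 stood at 272 and 315 CPM against 221 and 203 CPM (0.43 ± 0.09, edgeR adjusted p = 0.0023). Pgr, the progesterone receptor, stood at 12.4 and 15.4 CPM against 20.1 and 19.5 CPM (-0.55 ± 0.13, adjusted p = 0.0049). Both were present in muscle of both organs.

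Matrix and basement membrane genes leaned to the oviduct, with 50 called higher there and 15 higher in the uterus of 80 tested. Col12a1, a collagen of fibril surfaces, stood at 319 and 376 CPM against 40.9 and 42.7 CPM (3.02 ± 0.10, edgeR adjusted p = 1.3e-10). Lama2, a laminin chain of muscle basement membrane, stood at 46.5 and 44.7 CPM against 10.3 and 8.22 CPM (2.27 ± 0.12), and Col4a4, a basement membrane collagen chain, was higher by 2.57 ± 0.20. Fn1, fibronectin, stood at 170 and 178 CPM against 593 and 510 CPM (-1.70 ± 0.09), and Col6a4 at 13.2 and 12.3 CPM against 81.0 and 78.7 CPM (-2.68 ± 0.10). The 6 stromal markers, which include the matrix genes Col1a1 and Col3a1, summed to 4652 and 4419 CPM in oviduct muscle and to 3442 and 3151 CPM in uterine muscle. Col1a1 (0.62 ± 0.08), Col3a1 (0.78 ± 0.09) and Pdgfra (0.82 ± 0.09) were called higher in the oviduct, and Lum (-1.14 ± 0.10) and Tcf21 in the uterus. The part of stromal RNA in the matrix counts was not tested.

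Signal pathways were mixed. Of 49 BMP and TGF-beta genes tested, 23 were called toward the oviduct and 6 toward the uterus. Besides Fst, the BMP antagonist Nog stood at 9.29 and 10.9 CPM against 1.60 and 1.89 CPM (2.48 ± 0.22), while Id1, a BMP target, stood at 260 and 257 CPM against 385 and 388 CPM (-0.62 ± 0.08). The BMP targets did not move as one, since Id4 (0.50 ± 0.09) and Smad7 (0.70 ± 0.09) were called higher in the oviduct, Id2 was called higher in the uterus (-0.42 ± 0.09) and Id3 was not called. Of 48 Wnt genes, 21 and 13 were called, with the Wnt receptor Fzd4 higher in the oviduct (3.36 ± 0.27) and Fzd1 higher in the uterus (-1.61 ± 0.12). Of 23 Fgf genes, 8 and 6 were called. The ligands Fgf10, at 23.4 and 30.8 CPM against 1.06 and 1.43 CPM (4.37 ± 0.22), and Fgf7, at 30.7 and 36.9 CPM against 3.55 and 4.30 CPM (3.05 ± 0.15), were the largest in the oviduct. The Fgf response genes Etv5 and Dusp6 were called higher in the uterus (-1.59 ± 0.19 and -0.82 ± 0.24).

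Of 17 retinoid genes, 4 were called toward the oviduct and 8 toward the uterus. The retinoic acid makers Aldh1a1 and Aldh1a3 (1.93 ± 0.20) were higher in the oviduct, but Rdh10, which does the step before, stood at 19.3 and 16.4 CPM against 82.4 and 72.9 CPM (-2.15 ± 0.11), and Aldh1a2, another maker of retinoic acid, was called higher in the uterus (-1.28 ± 0.15), where free RNA could account for at most 14.5% of its oviduct level. Of 17 Notch genes, 6 and 2 were called, with Hes1 at 311 and 309 CPM against 66.6 and 81.6 CPM (2.03 ± 0.11). Of 9 hedgehog genes, 1 and 1 were called, the coreceptor Boc (1.80 ± 0.12) and Gli3 (-0.27 ± 0.09). Of 20 Hox cofactors and duct factors, 7 and 6 were called. Osr1 stood at 28.3 and 25.9 CPM against 4.26 and 4.38 CPM (2.61 ± 0.14), and the Hox cofactor Meis2 at 315 and 299.8 CPM against 591 and 571 CPM (-0.95 ± 0.08).

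Of 49 axon guidance and neural genes, 20 were called toward the oviduct and 15 toward the uterus. Brinp3 stood at 22.6 and 28.3 CPM against 0.355 and 0.226 CPM (6.40 ± 0.27), and the semaphorin receptor Nrp2 at 106 and 140 CPM against 6.21 and 7.69 CPM (4.10 ± 0.15). The guidance ligands Slit3 (-1.97 ± 0.16) and Efnb2 (-1.92 ± 0.10) were higher in the uterus. Of 27 growth factor and imprinted genes, 15 and 6 were called. Igf1 stood at 766 and 882 CPM against 149 and 128 CPM (2.54 ± 0.10, edgeR adjusted p = 4.8e-10), and Igfbp3, which binds it, at 7.01 and 6.30 CPM against 55.3 and 64.2 CPM (-3.20 ± 0.13).

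Early response genes, which dissociation of tissue is known to switch on, differed too. Of 25 early response and stress genes, 14 were called toward the oviduct and 4 toward the uterus. Atf3 stood at 214 and 280 CPM against 23.4 and 52.3 CPM (2.65 ± 0.25) and Nr4a1 at 377 and 567 CPM against 53.4 and 102 CPM (2.56 ± 0.24). The heat shock genes Hspa1a and Hspa1b went the other way, at 37.3 and 35.2 CPM against 128 and 134 CPM and at 30.5 and 31.0 CPM against 104 and 102 CPM. Stroma carried Atf3 at 240 and 288 CPM against 23.0 and 43.9 CPM. The part of tissue handling in the organ difference was not tested. The summed epithelial markers were also unequal, 66.5 and 55.4 CPM in oviduct muscle and 124 and 122 CPM in uterine muscle, with Epcam at 0 by the rule. Most of that was Krt18, at 53.0 and 44.7 CPM against 97.4 and 101.3 CPM, and its part in the result was not tested. Without cells that held Ptprc or over 1% haemoglobin UMIs, 2441 genes were called toward the oviduct and 2158 toward the uterus.

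Of 25 S phase genes, 1 was called toward the oviduct and 9 toward the uterus, among them Ung (-0.69 ± 0.10), Exo1 (-0.58 ± 0.14) and Cdt1 (-0.50 ± 0.13). Of 25 genes of G2 and M phase, 8 were called, each higher in the oviduct. The shares called, 40% and 32%, are near that of all genes (33.5%), the median log2 fold changes were -0.18 and 0.19, and the difference between the phases was not tested. Anln, which acts in cell division, stood at 44.4 and 62.9 CPM against 31.6 and 30.9 CPM (0.74 ± 0.13, edgeR adjusted p = 0.00077), and Mki67, which is 1 of the 5 genes of the count below, at 139 and 198 CPM against 135 and 118 CPM. Oviduct replicate 2 was the higher of the oviduct libraries in both. After thinning to 5000 UMIs, the share of cells with at least 2 UMIs of Mki67, Top2a, Cenpf, Cdk1 and Ccnb1 was 20.9% and 24.5% in oviduct muscle and 21.4% and 24.2% in uterine muscle. The means were 22.7% ± 2.51 and 22.8% ± 1.98 (SD, n = 2 libraries each), and the exact permutation p was 1, where 0.333 is the smallest that 2 against 2 libraries can give. Thinning left out 42 and 30 oviduct and 15 and 15 uterine cells, and without it the shares were 32.6% and 33.4% against 37.3% and 41.5%. In stroma, the thinned shares were 17.6% and 17.0% in oviduct against 21.8% and 22.5% in uterus.

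Whether the organ difference of muscle differs from that of stroma was tested as the interaction of organ and cell class over 8 library sums. Of 14560 genes, 1778 were called (12.2%), 810 with a larger value in muscle (5.56%) and 968 with a larger value in stroma (6.65%). DESeq2 called 508 and thinned cells 646. Of the 53 contractile genes tested, 25 were called in the muscle direction and 4 in the other. The muscle direction means an organ difference farther toward the oviduct in muscle than in stroma. It does not require a higher level in oviduct muscle, and a difference in stroma can give the call. Synpo2, an actin-bundling protein, stood at 121 and 150.4 CPM in oviduct muscle and 155 and 138 CPM in uterine muscle, but at 18.5 and 26.2 CPM against 71.6 and 65.0 CPM in stroma, an interaction of 1.54 ± 0.07 on the log2 scale (edgeR, adjusted p = 4.2e-10). Of 80 matrix genes, 11 and 25 were called, and of 27 growth factor and imprinted genes 2 and 15. Of the 29 transcription factors of smooth muscle, 4 and 6 were called. Ion channels and calcium genes had 4 and 12 calls among 47, Ryr2 among the 12 (-1.31 ± 0.29).

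The 5 largest interactions in the muscle direction were Hpgd (2.48 ± 0.23), Mcam (2.30 ± 0.16), Nr2f1 (2.08 ± 0.15), Tnnt2 (2.02 ± 0.41) and Nrp2 (1.99 ± 0.13). Mcam, an adhesion molecule of muscle and vessel walls, stood at 33.4 and 41.2 CPM in oviduct muscle and 9.23 and 11.5 CPM in uterine muscle, while stroma held 4.85 and 7.35 CPM against 7.90 and 8.37 CPM. Tnnt2 stood at 71.8 and 84.5 CPM against 13.5 and 13.9 CPM in muscle (2.47 ± 0.11), and stroma held 0.659 and 1.19 CPM against 0.472 and 0.756 CPM. So Tnnt2 set muscle apart from stroma in both organs and oviduct muscle apart from uterine muscle. Its interaction call was lost with cells thinned to 5000 UMIs and without uterus replicate 2, where it was 1.92 and 1.64.

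In the other direction, the largest was Itih5, a protein that binds hyaluronan, with an interaction of -2.46 ± 0.06 (edgeR, adjusted p = 9.3e-15). It stood at 241 and 292 CPM in oviduct muscle and 213 and 224 CPM in uterine muscle, where it was not called, and at 354 and 419.96 CPM against 54.8 and 59.3 CPM in stroma. Nppc, C-type natriuretic peptide, stood at 15.3 and 12.7 CPM against 22.5 and 33.6 CPM in muscle and 19.5 and 28.2 CPM against 8.79 and 9.50 CPM in stroma (-2.32 ± 0.20). Igfbp3 had -2.19 ± 0.12 and Vstm2b -1.94 ± 0.12. Cxcl10, a chemokine induced by interferon, had -2.05 ± 0.17, but its muscle level was higher in replicate 2 of both organs, at 4.95 and 45.6 CPM in oviduct against 12.3 and 149.9 CPM in uterus.

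The share of smooth muscle was compared last. It was 16.1% (95% Wilson interval 15.3 to 17.0) and 17.0% (16.1 to 18.0) of kept oviduct barcodes, and 17.5% (16.4 to 18.7) and 17.0% (15.9 to 18.1) of uterine ones. The intervals cover counting error only. The means of 16.6% ± 0.622 and 17.2% ± 0.357 (SD, n = 2) differed by -0.663 percentage points, with an exact permutation p of 0.667. With at least 5 of the 6 markers required, the shares were 6.32% and 6.87% against 5.67% and 5.48%, and the difference turned to 1.02 points. The dissociation decides which cells are caught, so these are shares of barcodes and not of tissue.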

How the data were processed

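Single-cell RNA of oviduct and uterus was measured in 4 libraries. The authors deposited raw UMI counts per gene and barcode, as whole numbers, for barcodes called as cells with Cell Ranger 6.0.1 and for all barcodes with Cell Ranger 4, per the file headers. Seurat 4.2.3 and the build mm10 are named in the submitters' processing notes. The tables hold 31053 genes, and 35 symbols are shared by several identifiers.

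Barcodes were kept if they had at least 500 genes and if mitochondrial UMIs made up at most 15%, and cells were chosen by the marker rule. Doublets were not removed in the main analysis. Scrublet scores marked 70 and 37 oviduct muscle cells at a rate of 0.8% per 1000 cells, and leaving these out is an alternative. Counts were summed per library and class and tested with edgeR 4.0.16 (R 4.3.3) by the quasi-likelihood test, TMM scaling and a filter on low counts, with Benjamini-Hochberg adjustment over all genes tested. DESeq2 1.42.0 was an alternative. Clusters were made with scanpy 1.11.5 and leidenalg 0.10.2 in Python 3.11.15, and exact permutation tests with scipy 1.17.1. The fits were tested on simulated data: in the organ comparison (13688 genes), 79.2% of genes changed 2-fold and 93.6% of those changed 4-fold were recovered with 10.4% false calls, and in the interaction (14560 genes) 71.8%, 85.2% and 6.21%.

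Genes were named by a rule: the 10 largest called differences per direction between the organs with mean CPM across both organs of at least 20, no overlap of libraries and free RNA of at most 25% of the level; per list the 3 largest called per direction with mean CPM of at least 5 (5 for Hox genes); the 5 largest interactions per direction; the 15 genes highest over stroma; and, whatever their result, the 6 markers, Acta2, Tagln, Myocd, Srf, Oxtr, Esr1, Pgr, Hoxa10, Hoxa11, Aldh1a1 and Brinp3. A further gene of the rule is not reported here. Genes described beyond the rule were named after their values were seen: the leading genes of clusters and of marker bins, Synpo2 in the interaction, Mki67, Hoxa9, Hoxc11, Krt18, Mkl1, Mkl2, Tead1, Tead3, Id2, Id3, Id4, Smad7, Ptger3, Ptger4, Chrm2, Lum, Col1a1, Col3a1 and Pdgfra. The cells and gene lists were chosen with earlier results of these data known. The series' design text says that both organs came from the same pools of neonates, but not which pool has which replicate number, so pairing by number is an assumption and was used only in an alternative fit.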

Additional observations from a re-analysis of the deposited data

Results flagged for a closer look

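The organ difference of smooth muscle was tested against that of stroma in the same libraries, and 1778 genes differed (edgeR, interaction of organ and cell class). The named genes with an organ difference farther toward the oviduct in muscle than in stroma were Hpgd at 2.48, Mcam at 2.30, Nr2f1 at 2.08, Tnnt2 at 2.02 and Nrp2 at 1.99 on the log2 scale. Those with an organ difference farther toward the uterus in muscle than in stroma were Itih5 at -2.46, Nppc at -2.32, Igfbp3 at -2.19, Cxcl10 at -2.05 and Vstm2b at -1.94. Igfbp3 was higher in the uterus in both classes, at 7.01 and 6.30 CPM against 55.3 and 64.2 CPM in muscle and at 22.5 and 22.6 CPM against 44.3 and 42.8 CPM in stroma. Of these, Cxcl10 was higher in replicate 2 of both organs, in muscle and in stroma.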

How the results depend on the processing

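The number of genes called between oviduct and uterine muscle, 4580, came to 2418 with at least 5 of the 6 markers required, 2621 with cells thinned to 5000 UMIs and 2690 with DESeq2, and to 3588 to 3910 when 1 library was left out. The interaction count of 1778 came to 646 with thinned cells and 508 with DESeq2, and to 1324 to 2201 with 1 library left out. Where 1 library is left out, the lone library of its organ is assumed to vary like the others. With a replicate block, which assumes that the replicate numbers pair the organs, 4905 and 2340 genes were called; deviations of same-numbered libraries from the organ means correlated with r = 0.204 over 5779 genes. The difference in the share of muscle cells turned from -0.663 to 1.02 points with at least 5 markers, and that in the share of muscle cells with at least 2 cell cycle UMIs from -0.131 to 1.60 points at 2000 UMIs (it was -6.43 without thinning and -3.89 with at least 1 UMI). The clusters numbered 5 at resolution 0.3 and 12 at 1.0. The causes were not tested. Over 131 named genes and 12 alternatives of the organ comparison, 62 of 1572 values lost their call, 6 gained one and 0 reversed, and of 120 interaction values 2 lost theirs. With 2 pooled libraries per organ, exact tests cannot go below p = 0.333, and Oxtr, with 0 to 6 UMIs per library, was too rare to test.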
